A study of Homo sapiens with 74 samples.

Results

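ZNF2 and ZNF317 are C2H2 zinc finger proteins (ZFPs) whose genes encode a KRAB domain, and their genomic binding was read by Cut&Run in HEK293T cells, a human embryonic kidney line. The members described here are the 4 peak lists that carry these names, ZNF2 replicates 1 and 2 and ZNF317 replicates 1 and 2, of 72 lists for 36 ZFPs. In every group, a well of cells was transfected with a plasmid for a single V5-tagged ZFP and harvested 48 h later. Without crosslinking, an antibody against the V5 tag brought in micrococcal nuclease, which cut and released the bound DNA. The control was the mock IP, the same procedure on cells that received no plasmid. The ZFPs are therefore overexpressed, and the control lacks the plasmid. The sources name 2 mock IP samples for the series, so lists share a control, and a region called in several lists can share its control signal as well. The lists held 376 and 216 peaks for ZNF2 and 222 and 197 for ZNF317, within a range of 15 to 8702 over the series, and the sources used here give no read total for a library.

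C2H2 zinc fingers are small zinc-binding modules that each read a few bases of DNA, and arrays of them can recognise long sites. A KRAB domain recruits the corepressor TRIM28, which brings the histone methyltransferase SETDB1 and heterochromatin protein 1, and many KRAB ZFPs are known to silence transposable elements. Genes of this family lie in clusters, many of them on chromosome 19, and some KRAB ZFPs bind the 3' exons of other ZNF genes.

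A region was a stretch in which the peaks of both replicates overlapped by at least 1 bp. ZNF2 had 111 regions and ZNF317 had 98 once the exons of the ZFP's own gene and EEF1A1 were set aside, 209 of the 11409 such regions of all 36 ZFPs. Nearly all of these regions lay on repeated sequence or on genes for abundant RNAs. None lay on another ZNF gene or in a ZNF gene cluster, and none was called for ZNF2 or ZNF317 alone. The sequences below show what the main kinds of region look like. All coordinates are hg38, given on the plus strand.

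The first pair gives the start of the ORF clone listed for each ZFP, with its start codon in capitals. The second pair gives the coding exon that encodes the A box of the KRAB domain in each gene, with the first and last 3 bases in capitals, since the peaks on the own genes differed there.

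ZNF2 clone start, chr2:95181228-95181317: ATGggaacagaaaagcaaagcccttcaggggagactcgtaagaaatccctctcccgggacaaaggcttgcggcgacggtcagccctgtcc
ZNF317 clone start, chr19:9160198-9160287: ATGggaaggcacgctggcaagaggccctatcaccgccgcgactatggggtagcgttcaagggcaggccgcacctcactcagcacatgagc
ZNF2 exon 3, chr2:95177483-95177609: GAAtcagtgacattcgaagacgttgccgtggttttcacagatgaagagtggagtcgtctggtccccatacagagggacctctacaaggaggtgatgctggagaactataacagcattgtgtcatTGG
ZNF317 exon 4, chr19:9157268-9157394: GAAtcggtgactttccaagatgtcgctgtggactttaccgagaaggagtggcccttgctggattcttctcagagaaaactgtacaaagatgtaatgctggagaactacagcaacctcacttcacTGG

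The next sequences come from the other regions. The satellite window reaches 100 bp to each side of the summit of the satellite-like region with the highest fold in its weakest list among those found for both ZFPs, and its ATTCC and GGAAT pentamers are in capitals. The tandem window lies at the summit of the highest 42-bp repeat region of ZNF317, with its middle 42 bases in capitals. The 18S window has the mature rRNA in capitals, and the RNU1-4 sequence is the whole peak of ZNF2 replicate 1 with the U1 RNA in capitals.

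Satellite window, chr20:31075331-31075531: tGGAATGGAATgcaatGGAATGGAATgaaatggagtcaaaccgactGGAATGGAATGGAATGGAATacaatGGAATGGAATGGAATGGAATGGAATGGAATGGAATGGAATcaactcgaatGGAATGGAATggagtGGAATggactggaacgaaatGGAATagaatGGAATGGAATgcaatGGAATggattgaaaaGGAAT
42-bp tandem window, chr4:49710044-49710169: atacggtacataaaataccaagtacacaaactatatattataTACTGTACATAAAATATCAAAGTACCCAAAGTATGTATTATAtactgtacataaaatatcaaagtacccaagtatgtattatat
18S start, chr21:8392626-8392725: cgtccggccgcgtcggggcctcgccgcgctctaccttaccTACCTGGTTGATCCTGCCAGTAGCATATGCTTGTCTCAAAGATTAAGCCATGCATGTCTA
RNU1-4 peak, chr1:16740516-16740694: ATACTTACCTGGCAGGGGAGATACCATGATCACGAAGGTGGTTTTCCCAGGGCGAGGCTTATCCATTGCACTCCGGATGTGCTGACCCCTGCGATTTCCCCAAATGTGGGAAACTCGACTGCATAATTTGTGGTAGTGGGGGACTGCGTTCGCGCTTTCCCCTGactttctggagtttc

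The own genes gave the highest folds and served as a check of the labels. ZNF2 had 1 peak on its own gene in each replicate, on the last coding exon, with a fold over mock IP of 6633 in replicate 1 and 4330 in replicate 2. This peak began at chr2:95181228, which is the first base of the listed clone, and it ended 25 bp past the stop codon. The coding part of exon 5 starts 164 bases before the clone, and those bases had no peak. Exons 2, 3 and 4 of ZNF2 had no peak in either replicate. The exon for the KRAB A box printed above is exon 3, so the signal on the ZNF2 gene covered the part that encodes the zinc fingers and not the KRAB A box. The listed clone sequence begins downstream of that exon as well. The name KRAB zinc finger thus describes the ZNF2 gene, and the lists do not show that the tagged protein carried the domain.

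For ZNF317, the last coding exon had folds of 2727 and 1271, and a further peak with folds of 378 and 318 spanned exons 3, 4 and 5 and the introns between them. Exon 4 of ZNF317, the KRAB A box exon, was covered over its full length in both replicates, while exons 2 and 6, of 25 and 83 coding bases, had no peak. The listed ZNF317 clone begins 84 bases inside exon 7, and the peak began 85 bp before it, at the start of the exon. For each ZFP, the listed sequence that was compared held 399 bases, while the last-exon regions were 904 bp (ZNF2) and 1345 bp (ZNF317) long. It is thus a part of the clone and not a whole ORF. The peaks on exons 3 to 5 lie outside the listed clone sequence, and whether the plasmid held more than the listed sequence was not tested.

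**Figure D1:**
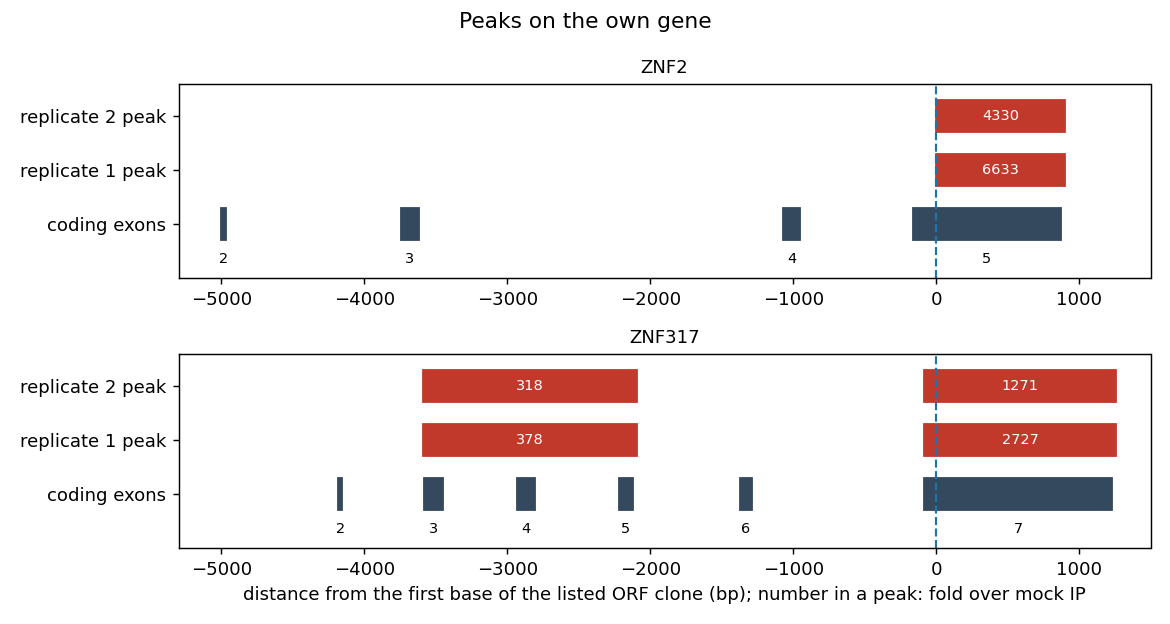
Peaks on the own genes of ZNF2 (top) and ZNF317 (bottom), with the coding exons as dark boxes, the peaks of each replicate as red boxes with their fold over mock IP, and distance in bp from the first base of the listed clone (dashed line) on the x axis. ZNF2 has 1 peak that starts at the line, and ZNF317 has a second peak over exons 3 to 5 with folds of 378 and 318.

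EEF1A1, the gene for translation elongation factor 1 alpha, had a region at chr6:73520048-73521255 with the same edges for both ZFPs. The folds were 1190 and 888 for ZNF2 and 1417 and 821 for ZNF317. EEF1A1 had a peak in all 72 lists of the series, with folds from 6.98 to 7903 and a median of 2407. The plasmids use the EF1-alpha promoter, and the mock IP cells had no plasmid.

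The replicates shared part of their peaks. Of the ZNF2 peaks, 30.3% of replicate 1 and 68.5% of replicate 2 overlapped a peak of the other replicate, and for ZNF317 the shares were 47.8% and 53.8%. Over all lists of the series, 26.3% of peaks overlapped the other replicate of the same ZFP. The share of peaks near a gene start was higher among unshared than shared peaks, though only slightly in ZNF317 replicate 2. Shared peaks here include those on own exons and EEF1A1. In ZNF2, 27.3% of the unshared peaks of replicate 1 and 26 of 65 of those of replicate 2 lay within 1 kb of a transcription start site (TSS), against 10.1% and 7.89% of the shared peaks. In ZNF317, the values were 34.3% and 5.63% of the unshared against 3.30% and 3.37% of the shared peaks. Of the ZNF2 peaks near a TSS, 60 of 69 in replicate 1 and 26 of 35 in replicate 2 had no match in the other replicate, and for ZNF317 the counts were 37 of 40 and 4 of 7. Shares near a TSS here count peaks on chromosomes for which the annotation holds a TSS.

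Satellite-like sequence was the largest class for both ZFPs. A region was called satellite-like where the sequence up to 100 bp from its summit held at least 5 ATTCC or GGAAT pentamers, the unit of human satellites 2 and 3, which form blocks of constitutive heterochromatin next to centromeres. ZNF2 had 68 satellite-like regions, 61.3% of its regions, and ZNF317 had 83, or 84.7%. The folds were low. In ZNF2 they ran from 1.398 to 8.31 in replicate 1 with a median of 3.18, and from 1.52 to 5.90 in replicate 2 with a median of 3.23. In ZNF317 they ran from 1.43 to 7.01 with a median of 2.84, and from 1.30 to 9.40 with a median of 3.25.

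Many of these regions lay in a few blocks. On chromosome 1, between 143.18 and 143.27 Mb, ZNF2 had 18 regions and ZNF317 had 16. On chromosome 4, between 49.10 and 49.65 Mb, ZNF2 had 17 regions. From 49.10 Mb on, ZNF317 had 23 satellite-like regions there. On chromosome 10, from 41.86 Mb on, ZNF2 had 7 and ZNF317 had 12. On chromosome 20, ZNF2 had 6 regions between 31.05 and 31.24 Mb, and ZNF317 had 4 between 31.06 and 31.08 Mb. On chromosome 2, ZNF317 had 5 between 89.82 and 89.84 Mb, and ZNF2 had 4 between 89.83 and 89.84 Mb. Taking regions of every class closer than 1 Mb as a block, 81 of the 111 ZNF2 regions fell in 8 blocks of at least 5, and 50 of these 81 were satellite-like. For ZNF317, 62 of the 98 regions fell in 5 such blocks, and 61 of them were satellite-like. The window printed above is from the chromosome 20 block. It holds 24 pentamers, and its region had folds of 5.52 and 5.06 for ZNF2 and of 5.39 and 6.98 for ZNF317. Reads from such repeats can align to several copies equally well, so neighbouring regions are not independent observations.

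By the lower fold of the 2 replicates, the first 10 ZNF2 regions were 8 on rDNA and those on RN7SL1 and RN7SK, down to a fold of 8.74. The first 10 ZNF317 regions reached down to 4.86 and held 5 satellite-like regions, 2 with the period of alpha satellite, 1 with a 42-bp period and 2 of no class. The highest satellite-like region of ZNF317, on chrUn_GL000216v2, had folds of 7.01 and 9.40, and ZNF2 had 8.31 and 2.48 there. These classes are described in turn.

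**Figure D2:**
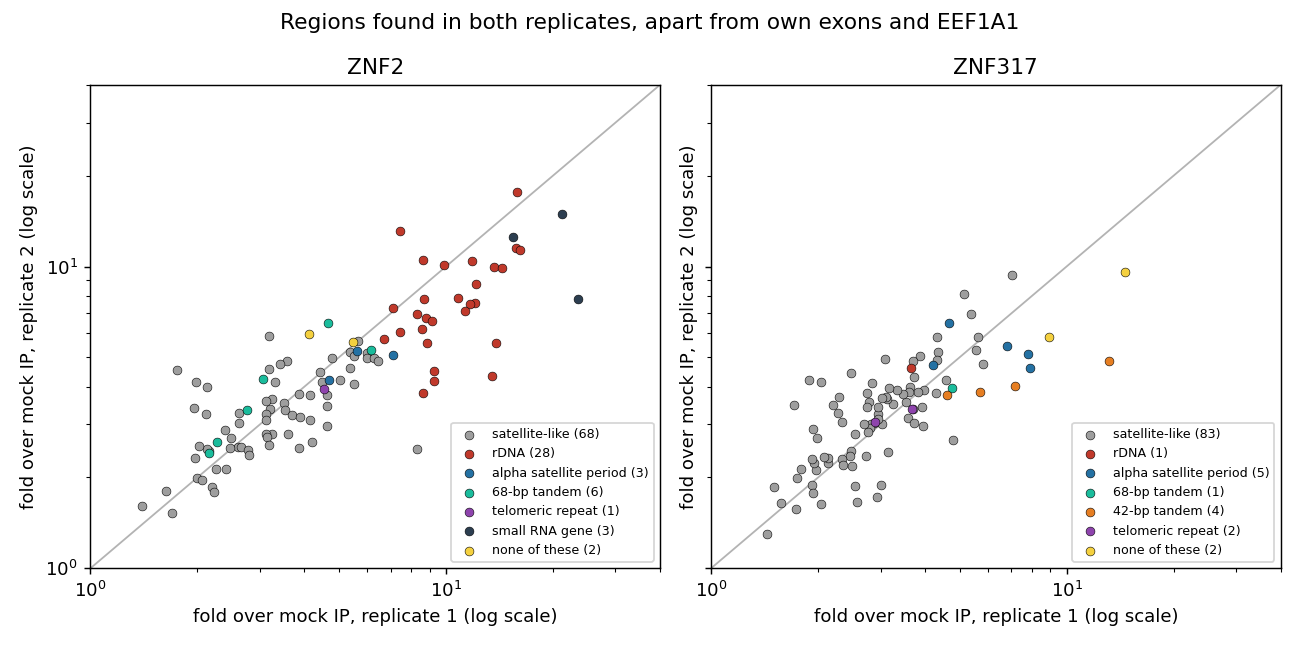
Fold over mock IP in replicate 1 (x axis) and replicate 2 (y axis), both on log scales, for each of the 111 ZNF2 and 98 ZNF317 regions, coloured by sequence class with the number of regions in brackets and the line of equal folds in grey. In ZNF2 the small RNA genes and rDNA lie above most satellite-like regions, and in ZNF317 the 42-bp tandem regions lie to the right of the line.

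The share of satellite-like regions was compared with that of the other ZFPs. Among the 33 ZFPs with at least 20 regions, ZNF317 ranked 1 and ZNF2 ranked 8. The mean of ZNF2 and ZNF317 was 73.0%, against 39.2% ± 24.3 (SD, n = 31) for the other ZFPs, whose shares ran from 0 to 73.2%. This difference of 33.7 percentage points did not pass a two-sided exact permutation test over all 528 choices of 2 ZFPs (p = 0.0625, Benjamini-Hochberg adjusted p = 0.189 over the 5 shares tested). The 31 include CPSF4, MBNL1 and SNRPC, for which the study lists no Cut&Run target genes. Without them the difference was 31.3 points (n = 28, exact permutation p = 0.0759, adjusted p = 0.195). With the replicate number as a block the difference was 25.5 points (exact permutation p = 0.0492, adjusted p = 0.147). This block setting used all peaks of each single list and not the regions found in both replicates. It averages the shares of the 2 lists of each ZFP, so the replicate number itself does not change the difference. The difference was 27.2 points without replicate 1 and 23.9 points without replicate 2, so the change from 33.7 points came with the change of peaks.

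Distance to genes followed the same order. The annotation holds a TSS on the chromosomes of 86 ZNF2 and 83 ZNF317 regions. Of these, 76.7% and 96.4% lay over 10 kb from every TSS, with ranks of 8 and 1 among the 33 ZFPs. CISD1, PHF7, ZNF22 and APEX2, which had the longest lists, had shares of 18.4%, 25.2%, 9.49% and 6.51%. CNOT4, CPSF4L, NANOS2 and SALL4 had no list longer than the 376 peaks of ZNF2 replicate 1, and shares from 70.9% to 81.1%. RBM5, with 166 and 437 peaks, had 89.9%. MBNL1, also with short lists, had 5.26%, or 1 of 19 regions, and 27 of its 31 regions lay on rDNA. Satellite-like shares were 2.56% to 16.05% for the longest lists, 56.7% to 73.2% for the short ones and 0% for MBNL1. ZNF2 and ZNF317 stood with the short lists other than MBNL1. The part played by list length was not tested. The mean share over 10 kb from every TSS was 86.6% for ZNF2 and ZNF317, against 52.3% ± 28.03 (SD, n = 31) for the others (exact permutation p = 0.0871, adjusted p = 0.189). Within 1 kb of a TSS lay 8 ZNF2 regions and 1 ZNF317 region, a mean of 5.25% against 33.8% ± 27.3 (SD, n = 31) (exact permutation p = 0.114, adjusted p = 0.189). ZNF317 had the lowest such share of the 33 ZFPs. Neither difference passed the test against the spread among ZFPs.

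Protein-coding genes were rarely close. The median distance to the nearest protein-coding TSS was 686 kb for ZNF2 and 667 kb for ZNF317. Within 100 kb, ZNF2 regions had 8 protein-coding genes as the nearest gene and ZNF317 regions had 4. CWH43, a gene of lipid remodelling of GPI anchors, was the nearest for 8 ZNF2 and 12 ZNF317 regions, all of them at least 67.5 kb away in the chromosome 4 block. DEFB115, a beta-defensin gene, was the nearest for 2 ZNF2 regions, and PLEKHG4B for 1 ZNF2 and 2 ZNF317 regions. Within 1 kb of a protein-coding TSS lay 2 ZNF2 regions, near RPS29 and GSTA4, and 1 ZNF317 region, on IGHMBP2. The IGHMBP2 region lay on a coding exon numbered 13, 2 or 1 depending on the transcript. The TSS near it therefore need not be the main start of the gene. The ZNF2 regions near RPS29 and GSTA4 lay on the small RNA genes RN7SL1 and RN7SK.

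No region of ZNF2 or ZNF317 lay on another ZNF gene or in a ZNF gene cluster. The annotation gave 599 protein-coding ZNF genes, of which 333 stood in 24 clusters that cover 0.584% of the chromosomes. Over all ZFPs, 1.43% of regions lay on a ZNF gene or cluster. The other ZFPs had a mean of 0.795% ± 1.01 (SD, n = 31), and 15 of the 31 also had none, and the difference did not pass the test (exact permutation p = 0.411, adjusted p = 0.411). Single lists held 3 peaks of this kind outside the own exons, each in 1 replicate. ZNF2 replicate 1 had a peak on ZNF787 (fold 4.79) and one in the cluster that starts with ZNF48 (4.60), and ZNF317 replicate 1 had one on ZNF140 (4.59). Each of these 3 peaks was also called for 7 to 9 other ZFPs.

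Most other gene lists held no region. A gene was counted where a region overlapped it or had its TSS as the nearest of any gene within 100 kb. By that count no region of either ZFP was at any of 18 KRAB corepressor and heterochromatin genes, among them TRIM28 and SETDB1, nor at any of 88 histone genes, 12 immediate early genes, 9 heat shock genes or 39 HOX genes. These lists were also rare among the 11200 regions of the other ZFPs, of which 0.196% were at a corepressor or heterochromatin gene and 0.143% at a histone gene. The shares were 0.0714% for immediate early, 0.0536% for heat shock and 0.0357% for HOX genes. At 1804 small nuclear RNA (snRNA) genes, ZNF2 and ZNF317 had 0 regions, against 0.661% of the other ZFPs' regions. Of 30 RNA polymerase III genes, ZNF2 regions lay on 3 and ZNF317 regions on 0, and 1.08% of the other ZFPs' regions were at one.

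No region was called for ZNF2 or ZNF317 alone. Each of the 111 ZNF2 regions was called in at least 1 list of 10 or more other ZFPs, with a median of 28 of 35, and 8 regions were called for all 35. Each of the 98 ZNF317 regions was called for at least 2 other ZFPs, with a median of 28.5, and 7 were called for all 35. Over the series, 3.01% of regions were called for no other ZFP. The mean of ZNF2 and ZNF317 was 0%, against 2.04% ± 3.24 (SD, n = 31) for the others, of which 6 also had 0% (exact permutation p = 0.161, adjusted p = 0.201). Counting only regions found in both replicates of another ZFP, 0 regions of ZNF2 and 0 of ZNF317 were without a match, against a mean of 11.34% ± 12.3 (SD, n = 31) for the others (exact permutation p = 0.135, adjusted p = 0.168). ZNF317 had a peak in 72.1% of the ZNF2 regions and ZNF2 in 91.8% of the ZNF317 regions, which is given as a description since the lists share controls. Of the other ZFPs, 27 had a peak in more of the ZNF2 regions than ZNF317 did, and 7 in more of the ZNF317 regions than ZNF2 did.

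**Figure D3:**
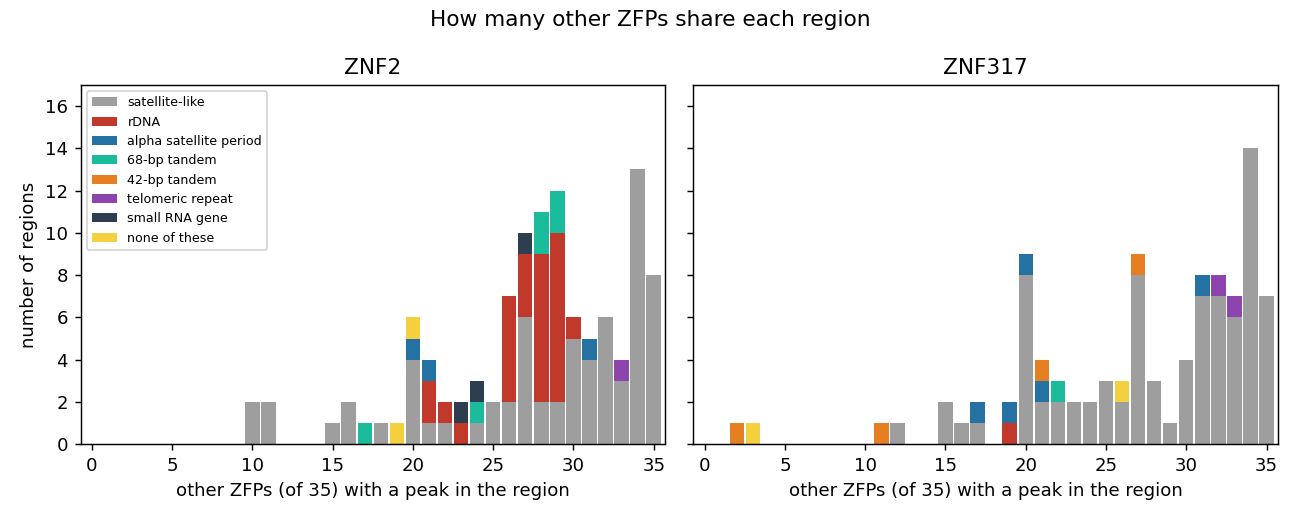
Number of regions (y axis) by the number of other ZFPs, of 35, that had a peak there in at least 1 replicate (x axis), for ZNF2 and ZNF317, coloured by sequence class. No region stands at 0. The lowest ZNF2 regions stand at 10, and ZNF317 has 1 region at 2 and 1 at 3.

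ZNF2 differed from ZNF317 in the class with the most regions after satellites. Ribosomal DNA, the tandem array that encodes the 18S, 5.8S and 28S rRNAs as one 45S precursor, held 28 ZNF2 regions, 25.2% of its regions, and 1 ZNF317 region. Regions were counted as rDNA where at least 50% of their 31-mers occur in a repeat unit of chromosome 21. The 28 regions stood on chromosome 21 between 8.21 and 8.45 Mb (13 regions) and on 2 unplaced or unlocalised contigs (15 regions). Their folds ran from 6.69 to 16.2 in replicate 1 and from 3.82 to 17.7 in replicate 2, with medians of 9.57 and 7.40. These were above the medians of the ZNF2 satellite-like regions in both replicates. The ZNF317 region on 18S had folds of 3.64 and 4.60. ZNF317 also had a peak in at least 1 replicate at 8 of the 28 ZNF2 regions, in replicate 1 at 2 and in replicate 2 at 7, with folds from 2.303 to 5.43. Among the 33 ZFPs, ZNF2 ranked 5 by its share of rDNA regions and ZNF317 ranked 31, and each ZNF2 rDNA region was called for 21 to 30 other ZFPs. The copies share their sequence, so the number of regions is not a number of independent sites.

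Placed on a single repeat unit, the ZNF2 regions followed the mature rRNAs. Of the 28 regions, 8 lay on 18S, 19 on 28S and 1 on 5.8S, and no region lay entirely in a spacer. On 18S, 5 of 8 regions began within 5 bp of the first base of the mature rRNA, and 7 of 8 ended within 30 bp of its last base. The region at chr21:8392666-8394508, with folds of 11.7 and 7.53, began exactly at the first base of 18S, the first capital in the sequence printed above. On 28S, 5 of the 19 regions ended within 30 bp of the end of the mature rRNA, past it by 8 or 9 bp.

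**Figure D4:**
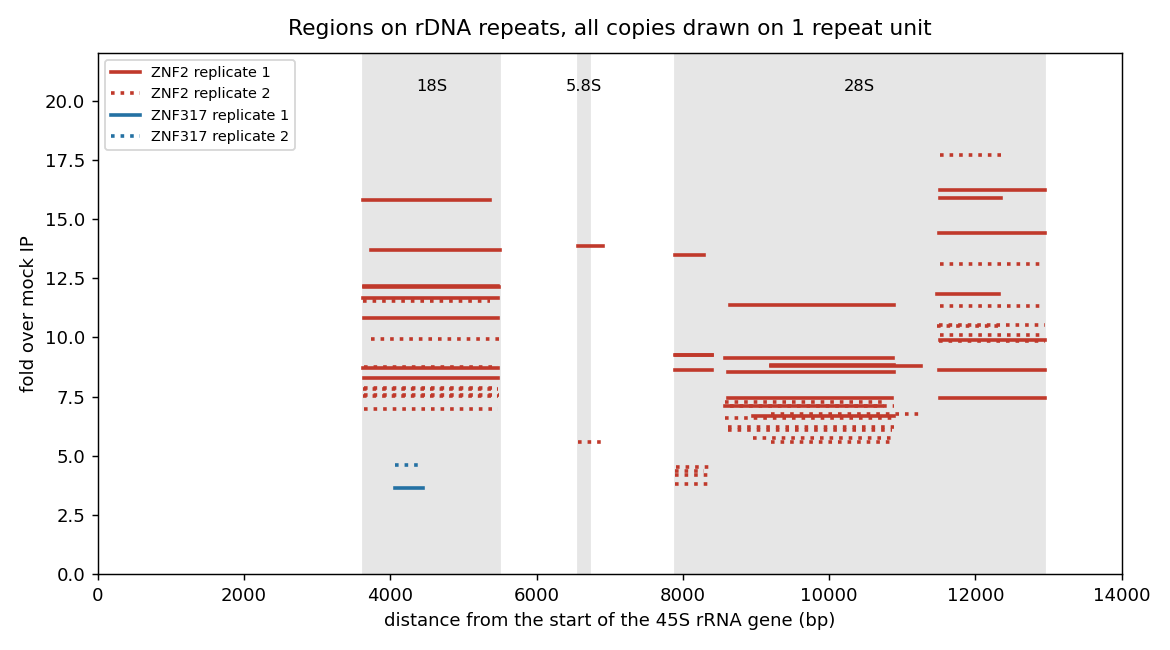
Regions on rDNA drawn as lines from their first to their last base, by distance in bp from the start of the 45S rRNA gene (x axis) and fold over mock IP (y axis), with solid lines for replicate 1, dotted lines for replicate 2, and the mature rRNAs shaded. The ZNF2 lines (red) stay on or next to the shaded rRNAs, and the 1 ZNF317 region (blue) lies inside 18S with folds of 3.64 and 4.60.

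Genes for abundant small RNAs held 3 further ZNF2 regions. ZNF2 had regions on RN7SL1 and RN7SL2, which encode the RNA of the signal recognition particle, and on RN7SK, whose RNA holds the elongation factor P-TEFb inactive. All are transcribed by RNA polymerase III. RN7SL1 had folds of 21.2 and 14.9, RN7SL2 had 23.6 and 7.81, and RN7SK had 15.5 and 12.6. By genome coordinate, the RN7SL1 region began 1 bp before the gene and ended 13 bp after it. The RN7SL2 region began at the gene's lowest coordinate and ended 11 bp past its highest. The RN7SK region began 27 bp inside the gene and ended 22 bp past it. RN7SL1 and RN7SL2 are near-identical, so reads may be split between them. For ZNF317, RN7SL1 had a peak only in replicate 1 (fold 7.97) and RN7SK only in replicate 2 (11.6). These genes were called for 23 to 27 other ZFPs. By the share of regions on small RNA genes, 2.70%, ZNF2 ranked 5 of 33 ZFPs, and the others had a median of 0.704% and a highest value of 9.68%.

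U1 and U2 snRNA genes, which encode the RNAs that recognise the 5' splice site and the branch point, separated the replicates of ZNF2. Replicate 1 had 17 peaks on snRNA genes, 9 of them on U1 and 8 on U2 genes, with a median fold of 23.7. Replicate 2 of ZNF2 had 0 and both ZNF317 lists had 0. The highest was RNU1-4, with a fold of 60.5 in replicate 1, the highest of that list outside its own exon and EEF1A1. The U1 peaks were 175 to 186 bp long, and the RNU1-4 peak began at the first base of the gene and ended 15 bp past its last, as the printed sequence shows. These peaks were not found in both replicates and are not among the 111 regions. RNU1-4 was called for 16 other ZFPs.

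A 42-bp tandem repeat, in which at least 50% of the bases in 2000 bp equal those 42 bp away, held 4 ZNF317 regions and 0 ZNF2 regions. ZNF2 replicate 1 had a peak at 2 of the 4, with folds of 2.85 on chromosome 4 and 2.14 on chrUn_KI270467v1, and replicate 2 had a peak at 0. The highest, chr4:49709510-49711887, had folds of 13.2 in replicate 1 and 4.86 in replicate 2. In its window, 77.9% of bases equalled those 42 bp away, against 31.9% for those 41 bp away. Of the 31 lists with a peak in that region, ZNF317 replicate 1 had the highest fold and replicate 2 ranked 10, and the other lists ran from 1.91 to 11.3 with a median of 3.25. The other 3 regions had folds of 7.16 and 4.02 on chrUn_KI270467v1, of 5.71 and 3.85 on chrUn_KI270333v1, and of 4.62 and 3.76 on chromosome 8, 41.6 kb from HGSNAT. The chromosome 8 region was called for only SALL4 and ZFP36L1 among the other ZFPs, the fewest of any ZNF317 region. All 4 regions were higher in replicate 1. By its share of 42-bp regions, 4.08%, ZNF317 ranked 2 of 33 ZFPs, and the highest share was 5.67%. This class was set after the regions had been seen, so the rank is a description.

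The most frequent 12-mer outside satellite-like regions came from the repeats already described. For ZNF317 it was found within 100 bp of the summit in 4 of 15 regions, all of them 42-bp tandem regions, and in 0.581% of the 8268 such regions of the other ZFPs. For ZNF2 it was found in 7 of 43 regions, all on rDNA, and in 0.714% of those of the other ZFPs. Each word was chosen as the most frequent in these same regions, so a high share there follows from the choice. The regions of the other ZFPs were of every class outside satellite-like.

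Alpha satellite, the tandem repeat of centromeres, appeared on chromosome 17 in both ZFPs. ZNF2 had 3 regions with the period of its monomer and ZNF317 had 5, and each of them held the minimal CENP-B box, the site of centromere protein B, which none of the satellite-like regions held. Folds were 4.68 to 7.12 and 4.22 to 5.23 for ZNF2, and 4.21 to 7.88 and 4.63 to 6.49 for ZNF317. A period of 67 to 69 bp, as in beta satellite, was found in 6 ZNF2 regions and 1 ZNF317 region, with 1 of the former in TMEM242. Telomeric TTAGGG repeats on the short-arm end of chromosome 5 gave 1 ZNF2 region (4.54 and 3.91) and 2 ZNF317 regions, with folds of 2.89 to 3.67 and 3.07 to 3.37.

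After these classes, 2 ZNF2 and 2 ZNF317 regions remained, 1.80% and 2.04%, the lowest shares of the 33 ZFPs. In the other 31 ZFPs the remaining share ran from 3.23% to 92.0%, with a median of 27.6%. These classes were set after the regions had been seen, so the shares and the ranks by class are a description. One ZNF2 region lay 836 bp from RNA5SP19, a 5S rRNA pseudogene, with folds of 5.47 and 5.63, and the other at chr21:6369409-6369691, with folds of 4.12 and 5.96. The highest of all 98 ZNF317 regions was one of its remaining pair, on a coding exon of IGHMBP2, an RNA and DNA helicase gene, with folds of 14.6 and 9.60. IGHMBP2 is itself among the ZFPs that the study tagged, and no IGHMBP2 list was used here. The IGHMBP2 region was called for APEX2, MBNL1 and TRIM55 among the other ZFPs. The other lay on the contig chr17_GL000205v2_random, with folds of 8.92 and 5.84.

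**Figure D5:**
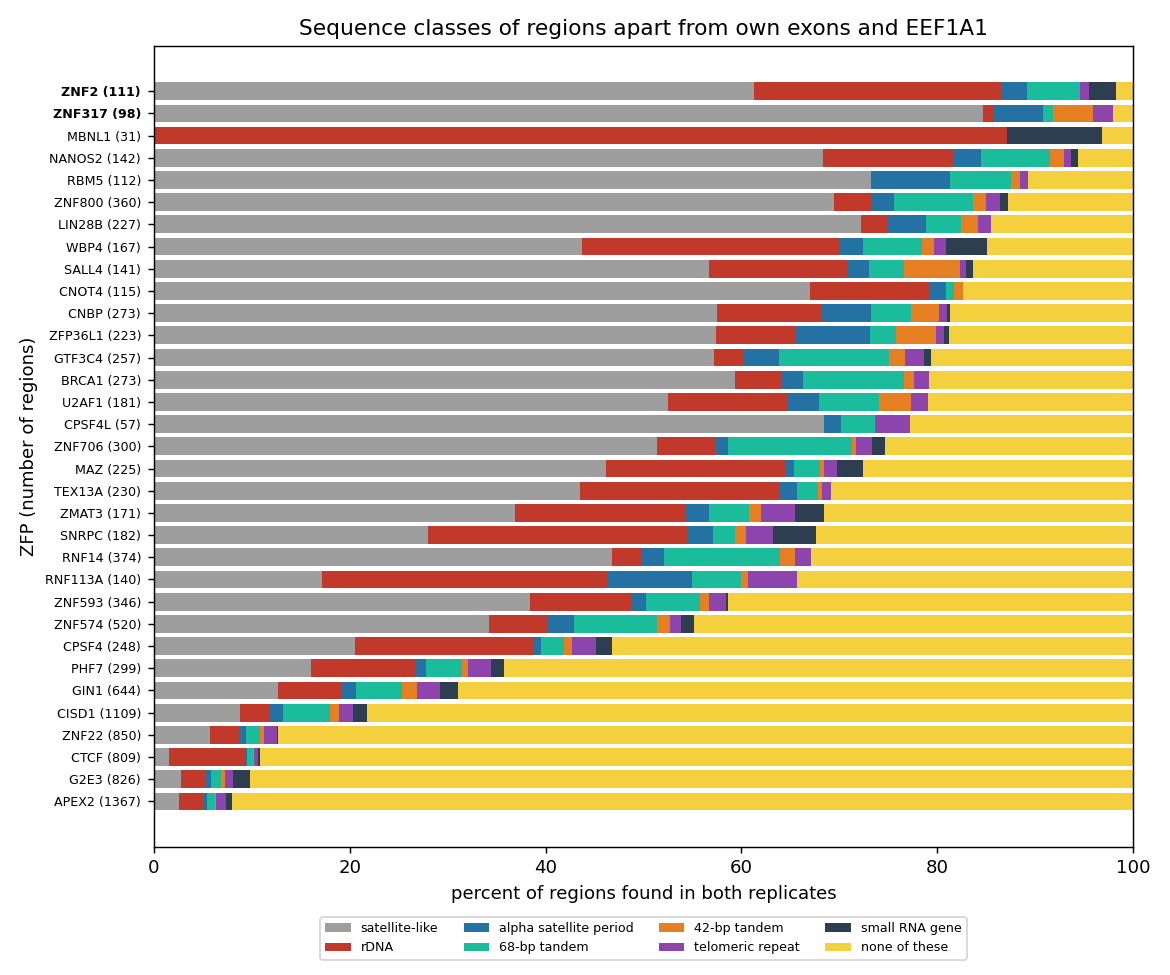
Percent of regions found in both replicates (x axis) in each sequence class, for the 33 ZFPs with at least 20 regions (number of regions in brackets), ordered by the share in none of the classes. ZNF2 and ZNF317 (bold) stand at the top, with 1.80% and 2.04% in none of the classes.

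Exons of tagged genes also gave peaks in lists of other ZFPs. The last ZNF2 exon had a peak in at least 1 list of APEX2, CNOT4, GIN1, MBNL1, NANOS2 and TEX13A, with folds from 3.99 to 8.13, against 6633 and 4330 in the ZNF2 lists. The last ZNF317 exon had one in CISD1 replicate 1 (fold 5.65). IGHMBP2 and MBNL1 are also ZFPs of the study. Coding exons of IGHMBP2 had peaks in the ZNF317 lists, with folds of 14.6 and 9.60 in replicates 1 and 2. A further IGHMBP2 peak had a fold of 9.18 in replicate 1 only. An MBNL1 exon outside the coding sequence had a fold of 4.79 in ZNF2 replicate 1. The cause of these peaks was not tested.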

How the data were processed

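Cut&Run peak lists of 36 ZFPs with 2 replicates each were used. These include CPSF4, MBNL1, SNRPC, TRIM55, ZC3H3 and ZMAT5, for which the study lists no Cut&Run target genes. Per the labels, the authors trimmed reads with Trimmomatic 0.36, aligned them to hg38 with Bowtie2 2.3.5.1, removed duplicates with Picard 0.1.8 and called narrow peaks for each library with MACS2 2.2.7.1 against the mock IP of its batch at an FDR threshold of 0.05. The deposited fold is a ratio of library over mock IP at the summit, and the deposited −log10 p and −log10 q values are also those of the peak caller. The deposited score is 10 times −log10 q without decimals. Replicates were separate wells, and which mock IP and batch go with a library was not stated.

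All other values were computed with Python 3.11.15, numpy 2.4.6 and pysam 0.24.0, and plots were drawn with matplotlib 3.10.9. Regions were overlaps of at least 1 bp between replicates, and the fold of a region is that of its highest peak in each replicate. Distances were measured from the nearest edge to GENCODE 44 TSSs. A ZNF gene cluster was a run of at least 5 protein-coding ZNF genes with gaps of at most 250 kb. Shares were compared by a two-sided exact permutation test over ZFPs with at least 20 regions, which left out 3, with Benjamini-Hochberg adjustment over 5 shares. The smallest p this test allows is 0.00189. The code was tested on simulated data. rDNA was defined by 31-mers of the repeat unit between 2 RefSeq 45S genes, tandem periods by the share of equal bases in 2000 bp around the summit (at least 50%, or 40% for 67 to 69 bp), telomeric repeats by at least 10 hexamers and small RNA genes by a distance of up to 100 bp. The reference carries no repeat masking, so no repeat annotation was used. Named regions are those on own exons and EEF1A1 and, by the lower fold, the first 10 of the list, near a coding TSS, on ZNF genes and called for no other ZFP, with rDNA, snRNA and single-replicate peaks added after their values were seen. The members, lists and tests were chosen with earlier results of these data known. Other ZFPs of the study for which no list was used here are not part of the comparisons.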

Additional observations from a re-analysis of the deposited data

Results flagged for a closer look

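Peaks found in only 1 replicate lie outside the comparisons above. Every called peak stands above the mock IP, and those below are given for the genes they lie on. RNU1-4, a U1 snRNA gene, had a fold of 60.5 in ZNF2 replicate 1 and no peak in replicate 2. ZNF317P1, a processed pseudogene of ZNF317, had a fold of 17.96 in ZNF317 replicate 1 and no peak in any other list. A second IGHMBP2 exon had a fold of 9.18 in ZNF317 replicate 1, besides the region found in both replicates. An MBNL1 exon outside the coding sequence had a fold of 4.79 in ZNF2 replicate 1. The cause of these peaks was not tested, and with 2 replicates per ZFP no group was large enough to look for outlying samples.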

How the results depend on the processing

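The 5 compared shares kept their direction, and none passed the adjusted test, under all 53 alternative settings run. The unadjusted exact permutation p was under 0.05 in 3 of them: the satellite-like difference was 36.02 points where replicate peaks had to overlap by 0.5 of each other (p = 0.0323, adjusted p = 0.161) and 25.5 points with the replicate block (p = 0.0492, adjusted p = 0.147), and the ZNF gene and cluster difference was -1.14 points without replicate 1 (p = 0.0417, adjusted p = 0.128). The number of regions moved more. Overlap by 0.5 of each other left 60 ZNF2 regions. Single lists, without replicate 1 or replicate 2, held 214 to 374 peaks for ZNF2 and 194 to 219 for ZNF317. Replicate numbers were not shown to pair samples: over 57 regions with peaks in all 4 lists, the log2 ratios of the replicates' folds correlated with r = -0.19 between ZNF2 and ZNF317, and crossing the numbers leaves the block value as it is, since it averages both lists of each ZFP. The replicate block, which used the peaks of single lists, changed no other call. List length is the only measure of depth, and a p that misses the threshold with 2 ZFPs against 31 does not show that the shares were alike.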
